A study of Mus musculus with 54 samples.

Results

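Expression of 10 leukocyte integrin genes was followed in mouse peritoneal macrophages across 15 conditions. The genes were taken by their symbols, Itgam, Itgax, Itgal, Itga4, Itga6, Itgav, Itgb1, Itgb2, Itgb3 and Itgb7, out of the 39179 genes in the count tables. The first 6 code for alpha chains and the other 4 for beta chains. All 10 genes passed the expression filter in both experiments, so every one of them was tested in every comparison.

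Integrins are receptors for cell adhesion in which an alpha chain and a beta chain form a dimer in the membrane. The chain pair sets the ligand: dimers with the beta chain of Itgb2 (CD18) are specific to leukocytes and bind ICAMs, complement fragments and fibrinogen, those with the chain of Itgb1 bind mainly fibronectin, laminin or VCAM-1, and those with the chain of Itgb3 bind vitronectin and other proteins with an RGD motif. In macrophages, Itgam (CD11b) and Itgax (CD11c) are among the most used surface markers, since their dimers with the Itgb2 chain act in complement uptake and attachment, and Itgal (CD11a) gives the receptor for ICAM-1. An alpha chain reaches the surface only together with a beta chain, so RNA levels of a chain are not levels of a dimer.

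The macrophages came from C57BL/6 mice aged 8 to 20 weeks and were collected 4 days after an injection of thioglycolate, so that all groups, controls included, hold elicited peritoneal cells that had adhered in culture. In the polarization experiment, cells of 3 mice were left untreated (M0) or given LPS (100 ng/ml) plus IFNg (50 ng/ml) to make them M1-like or IL-4 (10 ng/ml) to make them M2-like over 24 h, and each mouse gave all 3 conditions. The reprogramming experiment held 12 conditions with 3 replicates each: M0, M1-like and M2-like without transfection, the same 3 with transfection reagent alone (mock), and M2-like macrophages with a negative siRNA pool, with siRNA pools against E2f1, Myc, Pparg or Stat6, or with the 4 pools combined (iM1). Transfection followed 24 h of polarization, and RNA of transfected samples was taken 48 h after it, with IL-4 absent after transfection of the M2-like cells. When RNA of the untransfected samples of that experiment was taken is not given separately. The Myc pool came from another maker than the 3 other pools. Whether the replicates of the reprogramming experiment came from separate mice is not given by the labels, so their p-values measure the spread between these samples. The study's methods, under RNA isolation and PCR, speak of 3 biological replicates of iM1 and of the M0, M1-like and M2-like states.

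Between 39577911 and 59443987 reads per sample were counted on genes in the 9 samples of the polarization experiment, and between 13421854 and 19704195 in the 36 samples of the reprogramming experiment. Levels are given as CPM (read counts scaled to library size, TMM-normalized within each experiment), and levels of different genes are compared only as RPKM (CPM per kilobase of exon). Each siRNA pool lowered its target, to 18.9% of mock for E2f1, 35.4% for Myc, 24.1% for Pparg and 27.9% for Stat6, and the combined pool left 45.2%, 36.8%, 31.0% and 55.1% of mock. In percent of the negative pool, the single pools left 25.2%, 38.0%, 21.9% and 27.3% in the same order. The combined pool left 60.4%, 39.6%, 28.3% and 53.95% of it. All 7 macrophage markers reached 1 CPM in both experiments, summing to between 6469.5 CPM (mock M1-like) and 16729 CPM (untransfected M2-like of the reprogramming experiment). Most of the sum can be 1 gene: in M0 at 24 h, Lyz2 had 12214 of 15960 CPM. The summed markers of B cells reached at most 20.4 CPM, of T cells 3.44 CPM, of NK cells 9.18 CPM, of neutrophils 12.8 CPM, of eosinophils 38.6 CPM, of mast cells 5.73 CPM, of dendritic cells 2.93 CPM, of mesothelial cells 10.8 CPM, of platelets 56.0 CPM and of fibroblasts 199 CPM, with Elane and Prg2 at 0 in the polarization and Ly6g at 0 in the other experiment. The NK cell value was that of M1-like samples at 24 h, with Klrb1c and Ncr1 under 1 CPM in that experiment. In these bulk samples, fewer cells of a type and less RNA per cell cannot be told apart.

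Itgam (ENSMUSG00000030786, chromosome 7 from 128062640 to 128118491 on GRCm38, 30 exon blocks), Itgax (ENSMUSG00000030789, from 128129547 to 128150657) and Itgal (ENSMUSG00000030830, from 127296260 to 127335138) lie on the plus strand of the same chromosome. The stretches of 250 bases before the RefSeq starts of Itgam and Itgax are shown because the genes are close neighbours that share a beta chain and responded differently, and that of Itgb7 because it differed most after Itgax between the untransfected M1-like and M2-like samples of the reprogramming experiment. The gene positions are those of GENCODE, whereas the stretches end at the RefSeq start, so those of Itgax and Itgb7 run a few bases into the GENCODE gene. They are from RefSeq on GRCm38.p6, 5′ to 3′ on the gene's strand, at chr7:128062390-128062639 for Itgam, chr7:128129300-128129549 for Itgax and chr15:102231936-102232185 for Itgb7 (minus strand), and capitals mark matches to the motifs searched.
Itgam: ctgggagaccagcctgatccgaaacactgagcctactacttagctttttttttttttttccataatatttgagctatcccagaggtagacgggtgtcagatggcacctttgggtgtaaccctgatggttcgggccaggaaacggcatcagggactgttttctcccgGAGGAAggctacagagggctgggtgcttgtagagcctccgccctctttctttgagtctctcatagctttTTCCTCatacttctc
Itgax: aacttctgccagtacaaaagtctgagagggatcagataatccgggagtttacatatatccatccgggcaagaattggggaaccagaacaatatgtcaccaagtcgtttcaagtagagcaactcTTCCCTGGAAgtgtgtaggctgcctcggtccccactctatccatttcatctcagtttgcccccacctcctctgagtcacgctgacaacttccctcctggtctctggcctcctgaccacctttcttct
Itgb7: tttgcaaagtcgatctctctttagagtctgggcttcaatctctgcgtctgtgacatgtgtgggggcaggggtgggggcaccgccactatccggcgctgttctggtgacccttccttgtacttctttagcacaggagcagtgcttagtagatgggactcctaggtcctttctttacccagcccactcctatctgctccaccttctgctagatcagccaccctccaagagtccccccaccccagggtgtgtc

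Of the 10 genes, 6 had an entry in that table (these 3, Itga4, Itgav and Itgb1). The letters searched on both strands were GAGGAA (the core bound by PU.1, the myeloid Ets factor), TTCNNNGAA (a STAT site), the STAT site with 4 spacer bases that STAT6 favours (TTC and GAA as its arms), CACGTG (the E-box of MYC), TTTCGCGC and TTTGGCGC (E2F), the interferon response element (GAAA repeated after 2 bases) and the site of PPARs with RXR (AGGTCA repeated after 1 base). The Itgam stretch held GAGGAA at -84 to -79 and, on the other strand, at -15 to -10 from the start, and 23.3% of the 32851 promoters of this length hold at least 1 match. The Itgax stretch held TTCCCTGGAA at -127 to -118, a match to the STAT site with 4 spacer bases, which 5.85% of the promoters hold. GAGGAA was also found in the stretches of Itgav, at -218 and -7, and of Itgb1, at -9, and none of the 8 motifs was found for Itgb7 or Itga4. Of all promoters, 7.02% hold TTCNNNGAA, 6.02% CACGTG, 0.256% TTTCGCGC, 0.417% TTTGGCGC, 2.98% the interferon response element and 0.0335% the PPAR site. These matches describe letters in a window and were not tested as binding sites.

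At 24 h, the alpha chains that pair with Itgb2 parted under LPS and IFNg: Itgam and Itgax fell and Itgal rose. Of the 10 integrin genes, 4 rose and 5 fell in M1-like against M0 macrophages at an adjusted p under 0.05, in a comparison in which 72.9% of the 16110 genes tested were called (35.4% higher and 37.5% lower), so a count of 9 is not particular to integrins. Itgam had 844, 832 and 949 CPM in M0 (mice 1 to 3), 229, 189 and 245 CPM in M1-like macrophages and 975, 901 and 1016 CPM in M2-like ones. All M1-like samples lay far below the others, which overlapped. Itgam thus fell 3.96-fold in M1-like macrophages (log2 fold change -1.99, standard error 0.10, adjusted p = 2.89e-09), and its change with IL-4 did not pass the test (log2 fold change 0.14, standard error 0.10, adjusted p = 0.306). Most exon bases of Itgam (68.7%) are also annotated to a readthrough gene, Gm49368, that is not among the genes counted, and how reads shared by overlapping genes were treated is not given in the sources used here.

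Itgax, whose chain is a marker of dendritic cells and of tissue and inflammatory macrophages, moved both ways. It had 734, 759 and 701 CPM in M0, 107, 108 and 79.95 CPM in M1-like macrophages and 1457, 1443 and 1336 CPM in M2-like ones. The 3 groups did not overlap, with M2-like highest and M1-like lowest. Itgax fell 7.43-fold with LPS and IFNg (log2 fold change -2.89, standard error 0.11, adjusted p = 2.19e-10) and rose 1.93-fold with IL-4 (log2 fold change 0.95, standard error 0.10, adjusted p = 4.83e-05). The gap between M1-like and M2-like macrophages was 14.3-fold (log2 fold change -3.84, standard error 0.11, adjusted p = 2.53e-11).

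Itgal moved opposite to Itgax. It had 190.1, 186 and 192 CPM in M0, 406, 437 and 384 CPM in M1-like macrophages and 83.6, 99.4 and 102 CPM in M2-like ones. Again the groups did not overlap, now with M1-like highest and M2-like lowest. Itgal rose 2.16-fold in M1-like (log2 fold change 1.11, standard error 0.08, adjusted p = 9.19e-08) and fell 1.99-fold in M2-like macrophages (log2 fold change -0.995, standard error 0.08, adjusted p = 5.63e-06). The common beta chain moved less: Itgb2 (ENSMUSG00000000290, chromosome 10 from 77530252 to 77565708) had 2769, 2749 and 2832 CPM in M0, 4005, 3747 and 3990.4 CPM in M1-like macrophages and 2676, 3172 and 3285 CPM in M2-like ones. Only the M1-like samples stood clear of M0, by 1.41-fold (log2 fold change 0.49, standard error 0.08, adjusted p = 8.66e-05). For M2-like macrophages the change of Itgb2 was not called (log2 fold change 0.13, standard error 0.08, adjusted p = 0.227), and it was called without the M2-like sample of mouse 1 (log2 fold change 0.21, adjusted p = 0.00730).

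**Figure D1:**
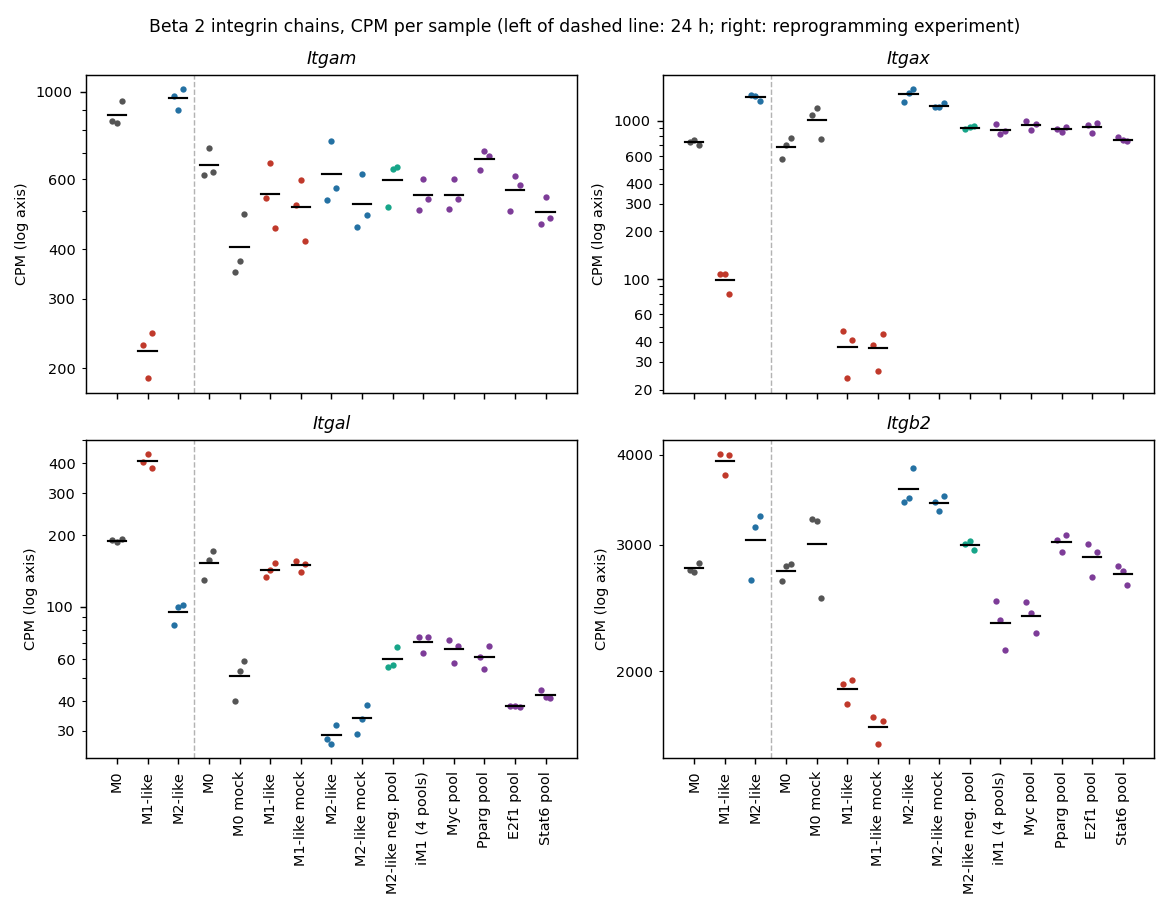
CPM on a log axis of the Itgb2 chain and its alpha partners Itgam, Itgax and Itgal in every sample (points) with the condition mean (bars), 24 h samples left of the dashed line and the reprogramming experiment on the right. Itgax was lowest in M1-like macrophages in both experiments, whereas Itgam stood low in M1-like macrophages of the polarization experiment only, at 189 to 245 CPM.

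Summed in RPKM over the alpha partners of Itgb2 (Itgam, Itgax, Itgal and Itgad), M0 macrophages held 47.97% ± 2.57 Itgam, 42.0% ± 2.40 Itgax and 7.95% ± 0.129 Itgal (mean ± SD, n = 3 mice). In M1-like macrophages Itgal made up 48.7% ± 2.91, with 34.4% ± 4.88 from Itgam and 16.01% ± 2.33 from Itgax. In M2-like macrophages Itgax came to 57.1% ± 2.30 and Itgal to 2.81% ± 0.335. The ratio of Itgb2 RPKM to the summed alpha RPKM went from 2.51 ± 0.0214 in M0 to 10.04 ± 0.438 in M1-like and was 1.94 ± 0.234 in M2-like macrophages, a description of RNA for which no test was run.

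**Figure D2:**
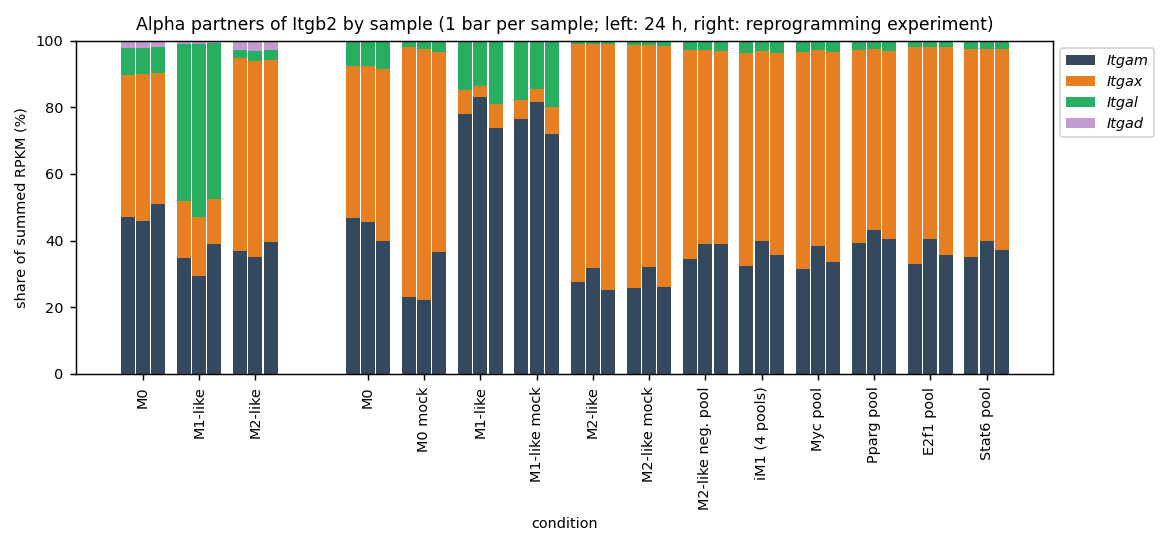
Share (%) of each alpha partner in the summed RPKM of Itgam, Itgax, Itgal and Itgad, with 1 stacked bar per sample and the 24 h conditions on the left. Itgal held 48.7% ± 2.91 in 24 h M1-like macrophages, Itgam 78.4% ± 4.65 in M1-like and Itgax 70.7% ± 3.27 in M2-like macrophages of the reprogramming experiment.

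Per length, Itgb2 was the most abundant of the 10 chains in M0 macrophages at 24 h, with 912 ± 14.2 RPKM (mean ± SD, n = 3 mice). Itgb1, Itgam and Itgax followed at 180.4 ± 5.29, 174 ± 12.9 and 152 ± 6.05 RPKM, of which Itgb1 and Itgam overlapped between mice. Itgb7 had 58.2 ± 2.09, Itgal 28.8 ± 0.426 and Itga6 14.9 ± 1.14 RPKM. Itgav, Itga4 and Itgb3, at 8.92 ± 0.772, 5.47 ± 0.293 and 4.05 ± 0.823 RPKM, were the least abundant.

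Among the 6 of these 10 chains outside the Itgb2 family, the laminin receptor chain Itga6 (ENSMUSG00000027111, chromosome 2 from 71745616 to 71858416) and the vitronectin receptor chain Itgb3 (ENSMUSG00000020689, chromosome 11 from 104608000 to 104670476) fell most in M1-like macrophages. Itga6 had 146, 126 and 131 CPM in M0, 13.9, 10.2 and 11.8 CPM in M1-like macrophages and 135, 107 and 114 CPM in M2-like ones. Its M1-like samples lay far below the overlapping M0 and M2-like samples, a fall of 11.2-fold (log2 fold change -3.49, standard error 0.12, adjusted p = 1.05e-10). Itgb3 had 29.1, 23.1 and 19.4 CPM in M0, 6.21, 4.44 and 4.26 CPM in M1-like macrophages and 62.0, 54.1 and 47.5 CPM in M2-like ones. The 3 groups were apart, with a 4.82-fold fall in M1-like (log2 fold change -2.27, standard error 0.18, adjusted p = 1.85e-07) and a 2.29-fold rise in M2-like macrophages (log2 fold change 1.19, standard error 0.15, adjusted p = 1.92e-04). Without the M2-like sample of mouse 1, the change of Itga6 with IL-4 (log2 fold change -0.18, not called) became -0.28 with an adjusted p of 0.0447.

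Itgav, the alpha partner of Itgb3 (ENSMUSG00000027087, chromosome 2 from 83724397 to 83806916), did not follow it. Itgav had 87.0, 96.8 and 104 CPM in M0, 132, 102 and 96.8 CPM in M1-like macrophages and 108, 99.1 and 103 CPM in M2-like ones. The groups overlapped and no difference was called (adjusted p = 0.102 for M1-like and 0.461 for M2-like against M0). The call turned without the M1-like sample of mouse 3, when Itgav was higher in M1-like macrophages (log2 fold change 0.29, adjusted p = 0.0284).

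Itgb1 (ENSMUSG00000025809, chromosome 8 from 128685654 to 128733200), the most widely shared beta chain, rose in M1-like macrophages while its partner Itga4 fell. Itgb1 had 756, 713 and 741 CPM in M0, 1275, 1204 and 1229 CPM in M1-like macrophages and 899, 768 and 745 CPM in M2-like ones. The M1-like samples were highest without overlap, 1.68-fold above M0 (log2 fold change 0.75, standard error 0.07, adjusted p = 2.04e-06). Itga4 (ENSMUSG00000027009, chromosome 2 from 79255426 to 79333123), whose chain gives a VCAM-1 receptor with Itgb1 and a gut homing receptor with Itgb7, had 72.9, 81.0 and 75.6 CPM in M0, 50.4, 51.0 and 34.3 CPM in M1-like macrophages and 90.7, 77.2 and 74.2 CPM in M2-like ones. The M1-like samples were lowest, with 1 of them well under the other two, a fall of 1.70-fold (log2 fold change -0.76, standard error 0.13, adjusted p = 2.27e-04). Exons of Cerkl on the other strand cover 8.04% of the exon bases of Itga4, and whether strand was used in counting is not given in the sources used here.

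Itgb7 (ENSMUSG00000001281, chromosome 15 from 102215995 to 102231944, minus strand), which partners Itga4 and the epithelial-binding Itgae, changed modestly at 24 h. It had 155, 162 and 166 CPM in M0, 181, 212 and 268 CPM in M1-like macrophages and 89.3, 114 and 133 CPM in M2-like ones. The order was M1-like, M0, M2-like without overlap, 1.37-fold up (log2 fold change 0.45, standard error 0.15, adjusted p = 0.0154) and 1.44-fold down (log2 fold change -0.52, standard error 0.15, adjusted p = 0.0206) against M0. Both calls were near the threshold: the first was lost without the M1-like sample of mouse 3 (log2 fold change 0.29, adjusted p = 0.0779), and the second without any 1 of the M0 samples (adjusted p = 0.0522, 0.0617 and 0.0620 for mice 1 to 3). Itgb7, Itgal, Itgax and Itgb3 were the 4 integrin genes called with IL-4 at 24 h, with 2 higher and 2 lower, where 27.9% of all genes were called (13.5% higher and 14.4% lower).

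Set against M2-like cells at 24 h, the contrast on which the study was built, 4 integrin genes were higher and 5 lower in M1-like, where 72.6% of all genes were called (34.6% higher and 38.1% lower). Itgax, Itgb3 and Itga6 had the largest differences, 14.3-fold, 11.02-fold and 9.95-fold lower, and Itgam was 4.37-fold and Itga4 1.79-fold lower (log2 fold changes -2.13 and -0.84). Itgal was 4.30-fold, Itgb7 1.97-fold, Itgb1 1.54-fold and Itgb2 1.29-fold higher. The adjusted p of these 9 genes was at most 9.36e-04, and Itgav did not pass the test (log2 fold change 0.09, adjusted p = 0.456).

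In the reprogramming experiment, untransfected M1-like macrophages had little Itgax and much Itgb7. In M1-like against M0, 2 integrin genes rose and 5 fell, in a fit of 14172 genes where 57.7% of all genes were called (29% higher and 28.7% lower). Itgax had 574, 704 and 775 CPM in M0, 47.3, 23.6 and 41.1 CPM in M1-like macrophages and 1321, 1506 and 1593 CPM in M2-like ones (replicates 1 to 3). No groups overlapped, and the fall in M1-like was 18.3-fold (log2 fold change -4.19, standard error 0.19, adjusted p = 7.93e-19). Itgb7 had 249.8, 212 and 239 CPM in M0, 997, 1174 and 1293 CPM in M1-like macrophages and 43.4, 36.7 and 37.8 CPM in M2-like ones. The M1-like samples stood 4.95-fold above M0 (log2 fold change 2.31, standard error 0.13, adjusted p = 2.28e-16) and the M2-like samples 5.95-fold below it (log2 fold change -2.57, standard error 0.13, adjusted p = 1.71e-15). The gap between M1-like and M2-like macrophages was 29.4-fold for Itgb7 (log2 fold change 4.88, standard error 0.15, adjusted p = 3.04e-23) and 39.4-fold in the other direction for Itgax (log2 fold change -5.30, standard error 0.19, adjusted p = 4.12e-21). The summed markers of B cells and mast cells, which are among the cells that carry Itgb7, were 1.198 and 0.574 CPM in M1-like samples. They were 19.5 and 3.20 CPM in M0 and 9.72 and 5.29 CPM in M2-like samples. Those of T cells, NK cells, eosinophils and neutrophils were 0.144, 0.757, 1.06 and 12.8 CPM in M1-like samples. In M0 these were 0.307, 0.377, 20.2 and 8.15 CPM, and in M2-like samples 0.465, 0.335, 16.4 and 7.53 CPM. The part of any of these cells in Itgb7 was not tested.

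Itgal was lower in M2-like macrophages only. It had 129, 157 and 171 CPM in M0, 134, 142 and 152 CPM in M1-like macrophages and 27.8, 26.5 and 31.7 CPM in M2-like ones. M0 and M1-like samples overlapped (log2 fold change -0.10, standard error 0.11, adjusted p = 0.480), while M2-like samples lay 5.32-fold below M0 (log2 fold change -2.41, standard error 0.12, adjusted p = 1.61e-15). Itgam had 615, 719 and 626 CPM in M0, 538, 662 and 452 CPM in M1-like macrophages and 533, 749 and 572 CPM in M2-like ones. These groups overlapped, with no call for M1-like (adjusted p = 0.147) or M2-like macrophages (adjusted p = 0.752). Leaving out replicate 2 of the M1-like samples gave Itgam a called fall (log2 fold change -0.40, adjusted p = 0.0311).

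Itgb2 went down in M1-like and up in M2-like macrophages of this experiment. Its samples had 2667, 2801 and 2816 CPM in M0, 1920.4, 1804 and 1947 CPM in M1-like macrophages and 3436, 3486 and 3830.2 CPM in M2-like ones. The groups did not overlap, with log2 fold changes of -0.55 (adjusted p = 2.27e-07) and 0.38 (adjusted p = 4.42e-04) against M0. Among the alpha partners, Itgam held 78.4% ± 4.65 of the summed RPKM in M1-like samples and Itgax 70.7% ± 3.27 in M2-like samples (mean ± SD, n = 3 replicates), whereas in M0 the shares were 44.1% ± 3.64 and 48.04% ± 3.21.

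Itga6 had 196, 204 and 180.0 CPM in M0, 46.2, 35.6 and 30.2 CPM in M1-like macrophages and 193, 232 and 161 CPM in M2-like ones. Only M1-like stood apart, 5.18-fold under M0 (log2 fold change -2.37, standard error 0.18, adjusted p = 3.05e-13). Itga4 had 70.5, 80.7 and 67.2 CPM in M0, 47.3, 40.5 and 37.6 CPM in M1-like macrophages and 91.1, 82.3 and 75.5 CPM in M2-like ones. It fell 1.74-fold in M1-like without overlap (log2 fold change -0.80, standard error 0.12, adjusted p = 1.79e-06) and was not called with IL-4 (adjusted p = 0.294).

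Itgb3 had 34.0, 27.4 and 25.1 CPM in M0, 73.0, 37.0 and 50.5 CPM in M1-like macrophages and 69.0, 68.3 and 67.7 CPM in M2-like ones. Both polarized groups lay above M0, by 1.86-fold for M1-like (log2 fold change 0.90, standard error 0.23, adjusted p = 0.00110) and 2.37-fold for M2-like macrophages (log2 fold change 1.25, standard error 0.23, adjusted p = 1.30e-04). Itgb1 and Itgav moved little: Itgb1 had a log2 fold change of -0.18 in M1-like (adjusted p = 0.0194) and Itgav of -0.32 in M2-like macrophages (adjusted p = 0.0209). The Itgb1 call was lost without replicate 1 of M0 (adjusted p = 0.0765) or replicate 2 (0.0553) or 3 (0.0690) of M1-like, and the Itgav call without replicate 2 of M0 (0.122) or replicate 3 of M2-like (0.140). With IL-4, 3 integrin genes rose (Itgax, Itgb2, Itgb3) and 3 fell (Itgal, Itgav, Itgb7), where 19.9% of all genes were called (10.7% higher and 9.19% lower).

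Between the untransfected M1-like and M2-like macrophages of that experiment, 3 integrin genes were higher and 4 lower in M1-like, where 61.5% of all genes were called (31.3% higher and 30.2% lower). Itgal was 4.97-fold higher (log2 fold change 2.31, standard error 0.12, adjusted p = 6.60e-17), and Itga6, Itga4 and Itgb2 were 5.23-fold, 1.99-fold and 1.90-fold lower, with adjusted p of at most 3.31e-08. Itgav passed narrowly, with overlapping groups (log2 fold change 0.23, standard error 0.10, adjusted p = 0.0459). That call was lost without replicate 1 or 2 of M1-like (adjusted p = 0.246 and 0.0735) or replicate 1 or 3 of M2-like (0.0754 and 0.289), and without replicate 1 of M1-like Itgb3 was called lower (log2 fold change -0.64, adjusted p = 0.0176).

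**Figure D3:**
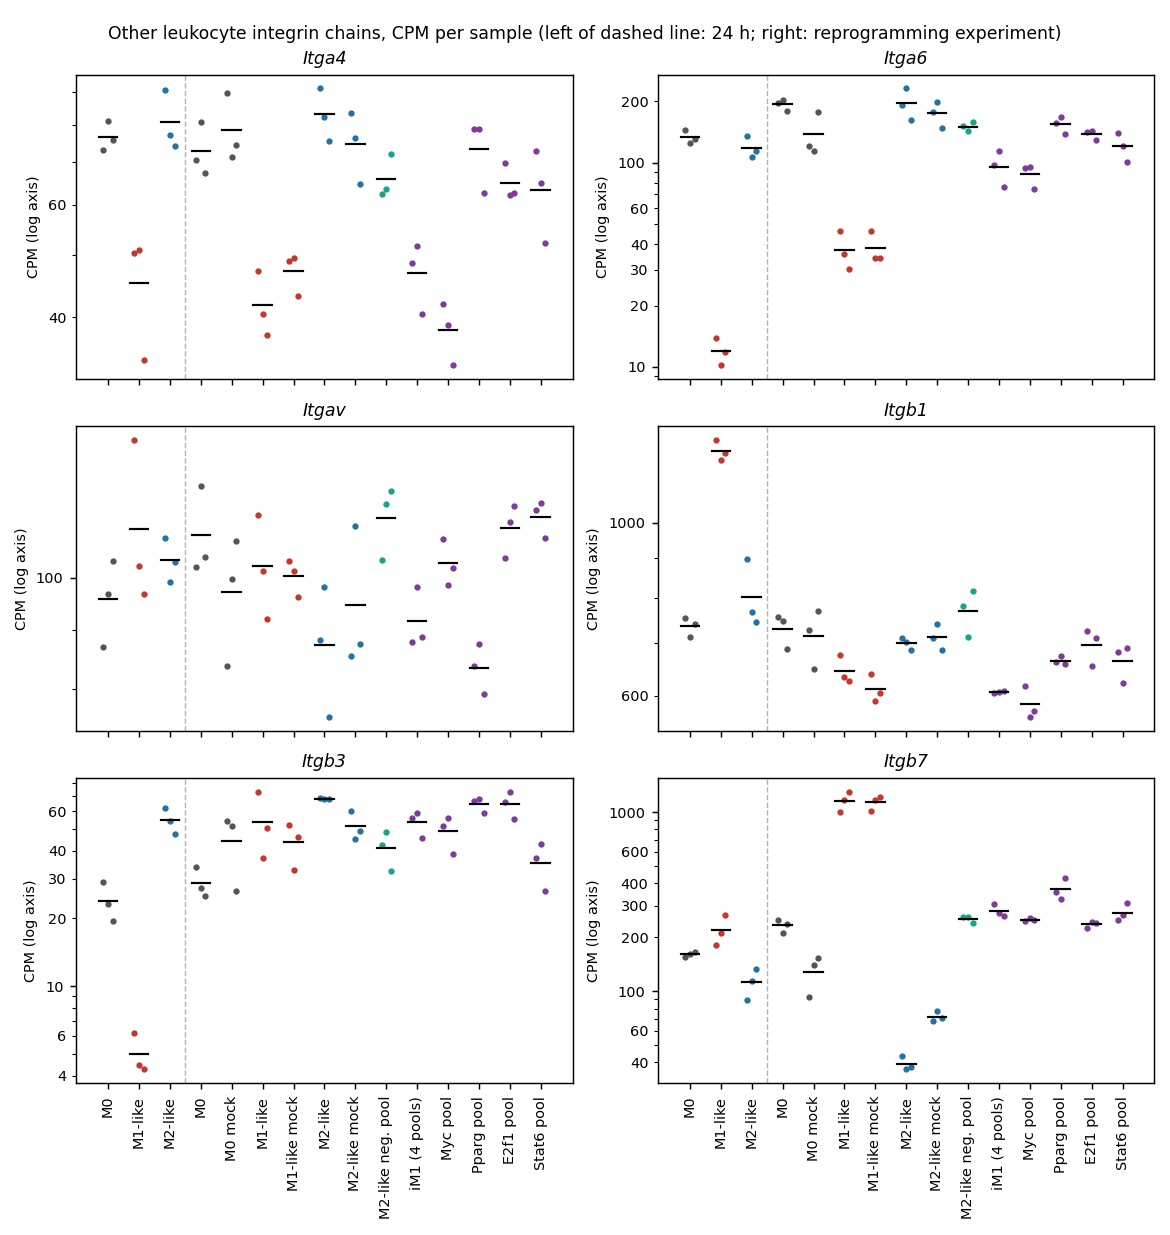
CPM on a log axis of the 6 chains outside the Itgb2 family in every sample (points) with the condition mean (bars), 24 h samples left of the dashed line. In the reprogramming experiment, Itgb7 had means of 39.3 CPM (M2-like) and 1155 CPM (M1-like), whereas Itgav and Itgb1 spanned 1.35-fold and 1.32-fold over its 12 conditions.

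The same contrast thus gave different integrin patterns in the 2 experiments, and the difference was tested as an interaction in a joint model of all 15 conditions. For M1-like against M0, 8 of the 10 genes differed between the experiments, where 49% of 15835 genes did. Itgb3 fell at 24 h in the polarization experiment and rose in the untransfected samples of the reprogramming experiment (difference -3.17, standard error 0.33, adjusted p = 1.95e-10), Itgb1 and Itgb2 rose in the former and fell in the latter (differences 0.92, standard error 0.09, adjusted p = 1.06e-10, and 1.03, standard error 0.11, adjusted p = 2.56e-10), and Itgam was called lower in the former only (difference -1.75, standard error 0.20, adjusted p = 1.81e-09). Itgb7 rose more in the reprogramming experiment (difference -1.86, standard error 0.20, adjusted p = 2.67e-10), and Itgal was called higher in the polarization experiment only (difference 1.198, standard error 0.16, adjusted p = 2.85e-08). The fall of Itgax was deeper in the reprogramming experiment (difference 1.29, standard error 0.23, adjusted p = 7.87e-06) and that of Itga6 deeper in the polarization experiment (difference -1.13, standard error 0.23, adjusted p = 1.07e-04). The fall of Itga4 differed by 0.03, standard error 0.18, adjusted p = 0.959, and Itgav was called only when the 24 h M1-like sample of mouse 3 was left out (difference 0.40, adjusted p = 0.0261).

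For M2-like against M0, 3 of the 10 genes differed between the experiments, against 17.2% of all genes. Itgal and Itgb7 fell further in the reprogramming experiment (differences 1.44, standard error 0.16, adjusted p = 2.85e-08, and 2.07, standard error 0.20, adjusted p = 1.36e-09). Itgav differed by 0.45, standard error 0.14, adjusted p = 0.0250, a call lost in 5 of the 12 fits with a sample left out: without M0 of mouse 1, M2-like of mouse 1, M0 replicate 2 and M2-like replicates 1 and 3 of the reprogramming experiment (adjusted p between 0.0560 and 0.139). For Itgax and Itgb3, which rose with IL-4 in both experiments, the differences were -0.13, standard error 0.22, adjusted p = 0.770, and -0.03, standard error 0.31, adjusted p = 1. For M1-like against M2-like, 7 genes differed (51.3% of all genes), led by Itgb7 (difference -3.93, standard error 0.20, adjusted p = 1.61e-18), Itgb3 (difference -3.14, standard error 0.32, adjusted p = 1.32e-10) and Itgam (difference -1.99, standard error 0.20, adjusted p = 8.03e-11). The experiments differ in read type (single reads of 50 against paired reads of 150 nucleotides) and in the facility that sequenced them, and may differ in the time of harvest, which is not given separately for the untransfected samples, and in the settings of counting, which are not given. These cannot be told apart. The contrasts with M0 share their M0 samples within each experiment.

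**Figure D4:**
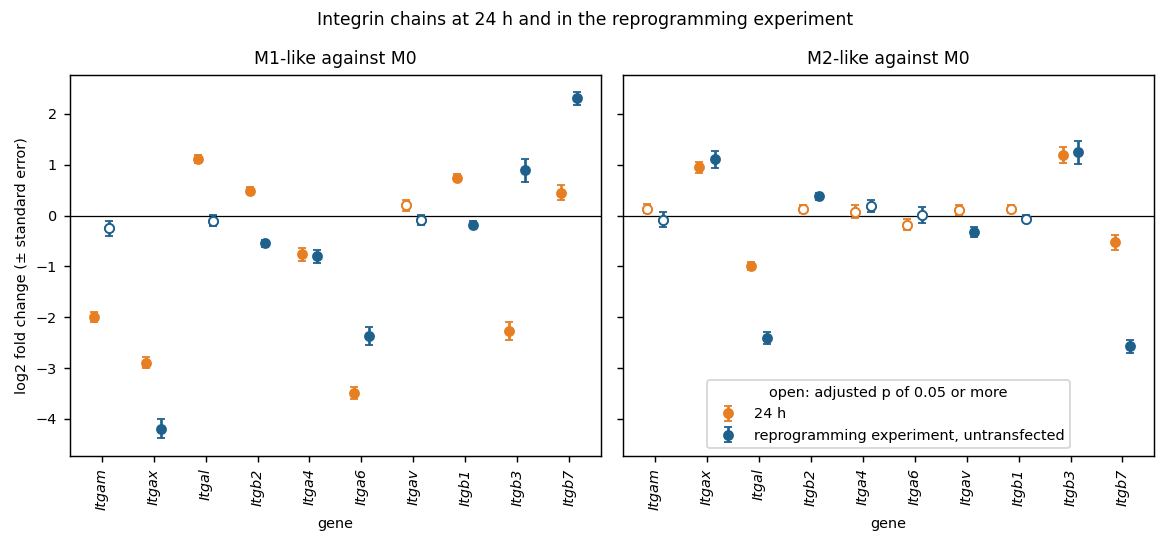
Log2 fold change with its standard error for each integrin gene in M1-like (left) and M2-like (right) against M0 macrophages, at 24 h and in the untransfected samples of the reprogramming experiment; open points did not pass an adjusted p of 0.05. Itgb3 had -2.27 in M1-like macrophages of the polarization and 0.90 in those of the reprogramming experiment. Itgb7 had -0.52 and -2.57 in the M2-like macrophages of these experiments.

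Mock M0 macrophages (transfection reagent alone) differed from untransfected M0 macrophages in integrin RNA, with 1 gene higher and 4 lower. In that comparison 20.4% of all genes were called (11.7% higher and 8.66% lower). Mock and untransfected samples may also differ in the time of harvest, which is not given separately for the untransfected ones. M2-like cells may differ in exposure to IL-4 as well. These and the reagent cannot be told apart. Itgal had 40.0, 53.6 and 58.8 CPM in mock M0 samples, all under the untransfected M0 samples given above (log2 fold change -1.58, standard error 0.12, adjusted p = 1.55e-11). Itgb7 had 92.4, 140.1 and 154 CPM, also without overlap (log2 fold change -0.86, standard error 0.12, adjusted p = 4.22e-06), and Itgam 350.2, 372 and 491 CPM (log2 fold change -0.69, standard error 0.15, adjusted p = 7.35e-04). Itgax was higher, at 1085, 1210.5 and 765 CPM (log2 fold change 0.58, standard error 0.16, adjusted p = 0.00915), with mock replicate 3 inside the M0 range. Itga6 was lower, at 121, 115 and 178 CPM (log2 fold change -0.49, standard error 0.16, adjusted p = 0.0303), with mock replicate 3 just under the M0 range. Without mock replicate 3, Itgb3 and Itgb2 were called higher as well (log2 fold changes 0.87 and 0.23, adjusted p = 0.00432 and 0.0171). The Itgax call was lost without M0 replicate 1 or mock replicate 2 (adjusted p = 0.0727 and 0.0875), and the Itga6 call without M0 replicate 1 or 2 or mock replicate 1 or 2 (adjusted p = 0.0724, 0.100, 0.130 and 0.174), while without M0 replicate 1 Itgb3 was called (0.0451). From untransfected to mock M0 samples, summed T cell markers went from 0.307 to 2.43 CPM, with Cd3d, Cd3e, Cd3g and Cd8a under 1 CPM. B cell markers went from 19.5 to 20.4 CPM. Eosinophil markers went from 20.2 to 11.4 CPM, neutrophil markers from 8.15 to 5.35 CPM and NK cell markers from 0.377 to 0.153 CPM. Summed platelet markers, nearly all of it Pf4 with Ppbp and Gp9 under 1 CPM, went from 56.0 to 12.8 CPM. The part of any of these cells in these results was not tested.

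In M1-like macrophages, edgeR called 0 of 14172 genes between mock and untransfected samples, the 10 integrins included. At an unadjusted p under 0.05 there were 438 genes, Itgb2 being the only integrin (log2 fold change -0.18, standard error 0.08, adjusted p = 1), and DESeq2 called 0 genes with 462 at that unadjusted p. In M2-like macrophages only Itgb7 was called, with 68.1, 77.1 and 71.3 CPM in mock samples, all above the untransfected ones (log2 fold change 0.88, standard error 0.13, adjusted p = 2.61e-05), where 1.77% of all genes were called (1.67% higher and 0.0988% lower). The change from untransfected to mock samples differed between M2-like and M0 macrophages for 5.66% of all genes. Among them were Itgal (difference 1.82, standard error 0.17, adjusted p = 3.10e-08) and Itgb7 (difference 1.73, standard error 0.18, adjusted p = 1.66e-07). Less firm were Itgax (difference -0.81, standard error 0.23, adjusted p = 0.0258) and Itgb3 (difference -1.02, standard error 0.31, adjusted p = 0.0491). The Itgax and Itgb3 differences lost their call in 7 and 9 of the 12 fits with a sample left out, at adjusted p of up to 0.0998 and 0.146. For Itgax these were M0 replicate 1, mock M0 replicates 1 and 2, M2-like replicates 2 and 3 and mock M2-like replicates 1 and 2, and for Itgb3 M0 replicates 2 and 3, mock M0 replicates 1 and 2, all M2-like replicates and mock M2-like replicates 2 and 3.

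Mock M1-like and mock M2-like macrophages differed in 7 integrin genes, 2 higher and 5 lower in M1-like, where 60.7% of all genes were called (30.9% higher and 29.8% lower). Itgb7 was 15.7-fold (log2 fold change 3.97, standard error 0.14, adjusted p = 2.61e-21) and Itgal 4.40-fold higher (log2 fold change 2.14, standard error 0.12, adjusted p = 4.48e-16). Itgax was 34.4-fold (log2 fold change -5.10, standard error 0.19, adjusted p = 1.46e-20), Itga6 4.57-fold, Itgb2 2.05-fold, Itga4 1.58-fold and Itgb1 1.17-fold lower. The gap in Itgb7 was narrower in mock than in untransfected samples. Itgb7 was the only integrin called in the test of the difference between mock and untransfected gaps (difference -0.90, standard error 0.18, adjusted p = 0.00281), where 1.13% of all genes were called.

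The negative siRNA pool, the control for siRNA without a chosen target, raised Itgb7 and Itgal in M2-like macrophages. Itgb7 had 260.3, 259 and 239.8 CPM with this pool, 3.51-fold above the mock samples without overlap (log2 fold change 1.81, standard error 0.13, adjusted p = 1.55e-11). Itgal had 55.9, 56.6 and 67.8 CPM against 29.2, 33.7 and 38.7 CPM in mock (log2 fold change 0.83, standard error 0.12, adjusted p = 1.35e-05), again without overlap. These were 2 of the 10 integrins, where 11.7% of all genes were called (6.67% higher and 5.03% lower). Without mock replicate 2, Itgav was called as well (log2 fold change 0.38, adjusted p = 0.0122). With the pool, the summed markers of T cells went from 0.444 to 2.27 CPM and of mast cells from 3.44 to 5.73 CPM. Those of eosinophils went from 19.4 to 36.0 CPM and of fibroblasts from 122 to 191 CPM. Of the T cell list, Cd3d, Cd3e, Cd3g and Cd8a had means under 1 CPM in every condition of this experiment. The same held for Ccr3, Epx and Prg2 of the eosinophil list. The part of such cells in the result was not tested.

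The combined pool (iM1) against mock is the reprogramming comparison of the study. In it 2 integrins rose and 5 fell, where 37.1% of all genes were called (19% higher and 18.1% lower). Itgb7 had 308, 273 and 264 CPM in iM1 macrophages (log2 fold change 1.97, standard error 0.13, adjusted p = 1.86e-13) and Itgal 74.2, 63.6 and 74.4 CPM (log2 fold change 1.06, standard error 0.12, adjusted p = 2.02e-08). Against the negative pool neither was called (log2 fold change 0.16, standard error 0.12, adjusted p = 0.375 for Itgb7 and log2 fold change 0.23, standard error 0.12, adjusted p = 0.144 for Itgal), although every iM1 sample had more Itgb7 than every sample of that pool. From mock to iM1 the summed B cell markers went from 9.0 to 18.5 CPM, T cell markers from 0.444 to 2.07 CPM and eosinophil markers from 19.4 to 29.6 CPM. As above, Cd3d, Cd3e, Cd3g and Cd8a and the eosinophil markers Ccr3, Epx and Prg2 had means under 1 CPM. The part of such cells in Itgb7 and Itgal was not tested. Itgax was lower than in mock as well, at 950.5, 826 and 869 against 1232, 1218 and 1299.6 CPM (log2 fold change -0.50, standard error 0.16, adjusted p = 0.0131), and not called against the negative pool (adjusted p = 0.872). The Itgax call against mock was lost without iM1 replicate 2 (log2 fold change -0.46, adjusted p = 0.0539).

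Against the negative pool, 5 integrins were lower and none higher in iM1 macrophages, where 26.5% of all genes were called (12.5% higher and 13.9% lower). Itga6 had 97.2, 114 and 76.1 CPM in iM1 against 151, 142 and 158 CPM with the negative pool (log2 fold change -0.65, standard error 0.16, adjusted p = 0.00332). Itga4 had 48.7, 51.7 and 40.4 against 62.2, 63.5 and 72.0 CPM (log2 fold change -0.49, standard error 0.12, adjusted p = 0.00334). For both, every iM1 sample lay below every sample of the negative pool. Itgb2 had 2506, 2356 and 2141 against 3005, 3034 and 2946 CPM (log2 fold change -0.36, standard error 0.08, adjusted p = 5.21e-04) and Itgb1 605, 606 and 608 against 781, 713 and 817 CPM (log2 fold change -0.35, standard error 0.07, adjusted p = 1.52e-04), also without overlap. Itgav was called at the margin (log2 fold change -0.30, standard error 0.10, adjusted p = 0.0227), and not without negative pool replicate 2 or 3 or iM1 replicate 1 or 3 (adjusted p = 0.0694, 0.0968, 0.0860 and 0.0749). Against the mock samples, Itgav in iM1 was not called (log2 fold change -0.05, adjusted p = 0.751).

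With the Myc pool alone, Itga4, Itga6, Itgb1 and Itgb2 were lower than with the negative pool, where 29.6% of all genes were called (13.9% higher and 15.6% lower). Itga4 had 41.9, 38.9 and 33.6 CPM (log2 fold change -0.79, standard error 0.12, adjusted p = 1.23e-05). Its mean was the lowest of the 12 conditions, with samples that overlapped those of untransfected M1-like macrophages (37.6 to 47.3 CPM). Itga6 had 94.0, 95.6 and 74.0 CPM (log2 fold change -0.78, standard error 0.17, adjusted p = 5.44e-04). No sample of the Myc pool overlapped with the negative pool in these genes, and the same held for Itgb1 (log2 fold change -0.40, standard error 0.07, adjusted p = 2.19e-05) and Itgb2 (log2 fold change -0.32, standard error 0.08, adjusted p = 0.00136). The iM1 and Myc comparisons share the samples of the negative pool, and iM1 was not tested against the Myc pool.

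The other single pools touched fewer chains. The Pparg pool lowered Itgav, at 83.8, 87.5 and 79.1 against 104, 116 and 119 CPM without overlap (log2 fold change -0.43, standard error 0.10, adjusted p = 0.00588), and raised Itgb7, at 357, 327 and 427 CPM (log2 fold change 0.55, standard error 0.12, adjusted p = 0.00501), with Itgb1 lower at the margin (log2 fold change -0.21, standard error 0.07, adjusted p = 0.0484). Against the mock samples Itgav was not called (log2 fold change -0.18, adjusted p = 0.233). The calls for Itgb7 without Pparg replicate 3 (adjusted p = 0.0772) and for Itgb1 without negative pool replicate 1 or 3 or any Pparg replicate (adjusted p between 0.0902 and 0.244) were lost, in a comparison where 5.74% of all genes were called (2.71% higher and 3.03% lower).

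In the fit without a block, Itgal was the only integrin called with the E2f1 pool, where 0.91% of all genes were called (0.261% higher and 0.649% lower), and with the Stat6 pool, where 1.51% of all genes were called (0.466% higher and 1.04% lower). Itgal had 38.3, 38.1 and 37.7 CPM with the E2f1 pool (log2 fold change -0.66, standard error 0.12, adjusted p = 0.00251). With the Stat6 pool it had 44.4, 41.8 and 41.3 CPM (log2 fold change -0.50, standard error 0.12, adjusted p = 0.0222). All 6 samples lay under those of the negative pool and, apart from mock replicate 3 at 38.7 CPM, above the mock samples. Against mock, Itgal was not called with either pool, and only the sign of the estimate turned. Its log2 fold change there was 0.17 (adjusted p = 0.452) with the E2f1 pool and 0.33 (adjusted p = 0.0842) with the Stat6 pool. With the replicate number as a block, Itgb3 was called higher with the E2f1 pool (log2 fold change 0.66, adjusted p = 0.0436) and Itgb1 lower with the Stat6 pool (-0.21, adjusted p = 0.0486) as well. The Stat6 call of Itgal was lost without negative pool replicate 3 or Stat6 replicate 2 or 3 (adjusted p = 0.203, 0.105 and 0.0958).

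**Figure D5:**
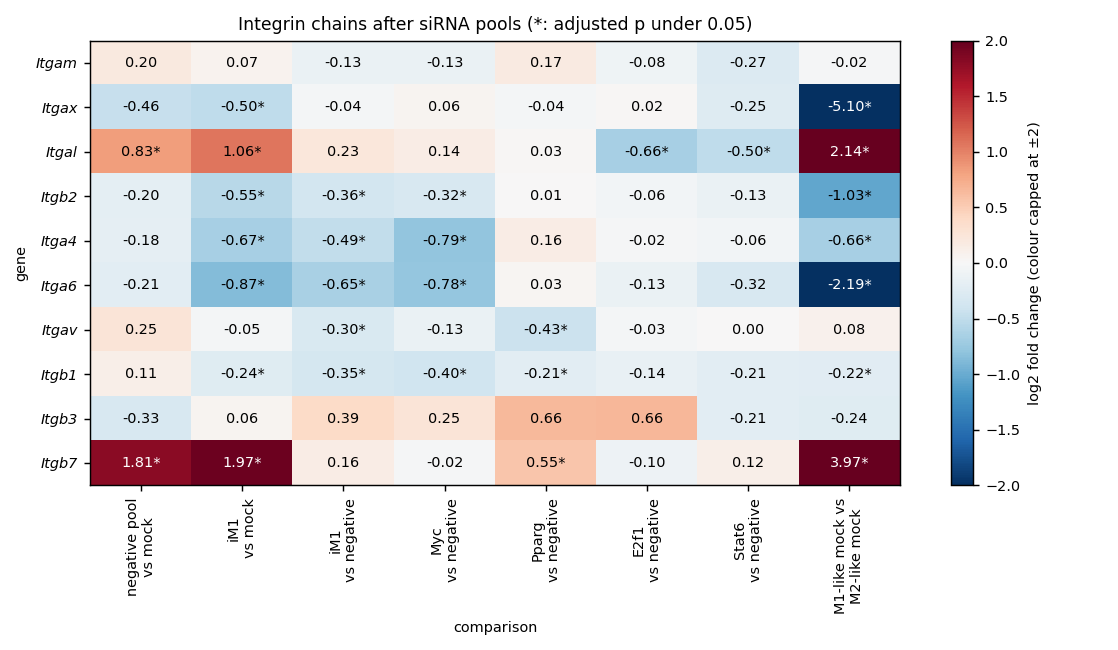
Log2 fold changes of the 10 integrin genes in M2-like macrophages after siRNA pools, with the M1-like mock against M2-like mock difference in the last column; numbers are the values, an asterisk marks an adjusted p under 0.05, and colour is capped at 2 in either direction. Itga6 was -0.65 in iM1 and -0.78 with the Myc pool against the negative pool, beside -2.19 in the last column.

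Set against mock M1-like macrophages, iM1 macrophages differed in 5 integrins, 3 higher and 2 lower, where 52.9% of all genes were called (27.2% higher and 25.6% lower). Itgax stayed 24.3-fold above the mock M1-like samples, which had 38.4, 26.1 and 44.8 CPM (log2 fold change 4.60, standard error 0.19, adjusted p = 4.27e-19). Itgb7 stayed 4.02-fold below the mock M1-like samples, which had 1017, 1173 and 1212 CPM (log2 fold change -2.01, standard error 0.13, adjusted p = 1.22e-14). Itgal was 2.11-fold lower, Itga6 2.504-fold and Itgb2 1.39-fold higher, all without overlap. For Itga4 the iM1 and mock M1-like samples overlapped, at 48.7, 51.7 and 40.4 and 49.0, 49.6 and 43.1 CPM (log2 fold change -0.01, standard error 0.12, adjusted p = 0.957). The alpha partners of Itgb2 in iM1 were 60.5% ± 3.48 Itgax and 35.9% ± 3.72 Itgam, against 5.91% ± 2.17 and 76.7% ± 4.79 in mock M1-like macrophages.

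Across the 12 conditions of the reprogramming experiment, ordered by mean CPM, Itgax was highest in M2-like (1473 CPM) and lowest in mock M1-like macrophages (36.4 CPM), a 40.5-fold span, and 7 of the 11 neighbouring pairs in that order overlapped between samples. Itgb7 ran over 29.4-fold from M1-like to M2-like, with 5 of 11 neighbours overlapping. Itgal spanned 5.32-fold and Itga6 5.23-fold, with 9 and 10 neighbours overlapping, and Itgb3, Itga4 and Itgb2 between 2.14-fold and 2.37-fold, with 10, 10 and 7. For Itgam, Itgav and Itgb1, whose spans were 1.67-fold, 1.35-fold and 1.32-fold, all 11 neighbouring pairs overlapped.

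Over the same 12 condition means (log2 CPM), Itgax followed Itga6 and Itgb2 with Pearson's r of 0.91 and 0.88, and ran opposite to Itgb7 and Itgal with r of -0.83 and -0.75. Itgam had r of 0.13 with both Itgax and Itgal. Among 10129 genes, the patterns most like Itgax were those of Clta (r = 0.997), Nrros (0.997) and Rin3 (0.992), those most like Itgb7 were Ece1 (0.992), Plpp2 (0.969) and Gm1966 (0.967), and those most like Itga6 were Ywhah (0.991), Rps6ka1 (0.990) and Lpcat1 (0.990). For Itgb2 they were Rab3il1 (0.983), Prkch (0.980) and Ltbp3 (0.980), for Itga4 Trerf1 (0.978), Ptpa (0.967) and Mbnl1 (0.965), for Itgb1 Bend4 (0.945), Med14 (0.933) and Dennd6a (0.926), and for Itgal Skil (0.937), Elk3 (0.934) and Psmg2 (0.933). For Itgam, Itgav and Itgb3 the best were Rpl9-ps7 (0.830), Tmem242 (0.829) and Helz (0.788). These conditions share an experiment and the M2-like background of 8 of them, and the values describe likeness only.

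The other genes of integrin adhesion were given by lists of other chains, activation and linkage proteins, proximal kinases and ligands. Beside the counts of these lists at 24 h stand the 72.6% of all genes called in M1-like against M2-like (34.6% higher and 38.1% lower). Of 17 other integrin chains, 11 passed the filter at 24 h, and in that contrast 2 were higher and 3 lower (median log2 fold change -0.07, against -0.06 over all genes). Itgad, whose chain also pairs with Itgb2 and whose gene follows Itgax on chromosome 7, had 35.2, 35.1 and 32.7 CPM in M0, 5.43, 5.42 and 3.77 CPM in M1-like macrophages and 64.6, 69.5 and 66.4 CPM in M2-like ones, the same order as Itgax (-3.79, standard error 0.12, adjusted p = 3.37e-11 as the log2 fold change between M1-like and M2-like). Itgb5, the other common partner of Itgav, had 16.4 ± 0.900 CPM (M1-like) against 224 ± 27.7 CPM (M2-like) (log2 fold change -3.77, standard error 0.10, adjusted p = 6.81e-12), and Itga9, a partner of Itgb1, was higher (log2 fold change 1.94, standard error 0.28, adjusted p = 4.58e-05).

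Of 20 genes for activation and linkage, 19 were tested, and M1-like against M2-like at 24 h had 6 higher and 7 lower, beside 72.6% of all genes called (median -0.07). In the untransfected samples of the reprogramming experiment 2 were higher and 12 lower, with 61.5% of all genes called (median -0.42, against 0.03 over all genes). Fyb, the adaptor ADAP, was higher in M1-like macrophages at 24 h (log2 fold change 2.20, standard error 0.08, adjusted p = 1.03e-10) and lower in the reprogramming experiment (-0.42, standard error 0.14, adjusted p = 0.00870). Apbb1ip, the Rap1 effector RIAM that recruits talin, was lower in both (-1.88, standard error 0.10, adjusted p = 4.25e-09, and -1.47, standard error 0.08, adjusted p = 2.72e-17), and Sharpin, which holds integrins inactive, was higher in both (0.79, standard error 0.08, adjusted p = 1.68e-06, and 0.77, standard error 0.07, adjusted p = 1.20e-11).

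Of the 7 kinases that act next to integrins, 6 were higher and none lower in M1-like against M2-like at 24 h (median 1.16), beside 72.6% of all genes called and 34.6% higher. Against M0, 5 were higher and 1 lower (median 0.94), beside 72.9% of all genes called (35.4% higher and 37.5% lower). Src had 251 ± 4.63 CPM in M1-like against 5.91 ± 0.867 CPM in M2-like macrophages at 24 h (log2 fold change 5.40, standard error 0.10, adjusted p = 5.28e-13). In the same contrast Ptk2, the focal adhesion kinase, had 1.16, standard error 0.06, adjusted p = 3.46e-09. In the untransfected M1-like against M2-like samples of the reprogramming experiment 1 was higher (Src, 1.54, standard error 0.10, adjusted p = 1.33e-14) and 3 lower (median -0.12). There 61.5% of all genes were called (31.3% higher and 30.2% lower). In iM1 against the negative pool 4 were higher and none lower, beside 26.5% of all genes called and 12.5% higher (median 0.44, all genes 0.01), with Src at 0.81, standard error 0.09, adjusted p = 1.21e-07.

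Of 19 ligands, 13 were tested at 24 h, and M1-like against M2-like had 6 higher and 5 lower, beside 72.6% of all genes called (median 0.33). Icam1, the ligand of the Itgal and Itgam dimers, had 998 ± 50.9 CPM (M1-like) against 7.01 ± 0.379 CPM (M2-like) (log2 fold change 7.15, standard error 0.09, adjusted p = 1.33e-13). Thbs1, a thrombospondin bound by Itgb3 dimers, rose (log2 fold change 5.68, standard error 0.29, adjusted p = 4.25e-09), and Fn1, the fibronectin gene, fell (log2 fold change -4.52, standard error 0.17, adjusted p = 2.05e-10). In iM1 against the negative pool, Icam1 was higher (log2 fold change 2.29, standard error 0.26, adjusted p = 6.24e-08), whereas Thbs1 and Fn1 had 0.29, standard error 0.34, adjusted p = 0.567, and -0.47, standard error 0.21, adjusted p = 0.0917.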

How the data were processed

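RNA sequencing covered 45 samples, of which 9 came from the polarization experiment and 36 from the reprogramming one. The authors deposited read counts per gene for 54 libraries, since each mouse of the polarization experiment was sequenced as 2 technical replicates, which were summed here. Per the methods of the study and the labels, reads were trimmed with Trimmomatic, mapped to GRCm38/mm10 with TopHat2 and counted with featureCounts, and their versions, the counting annotation and the use of strand and of reads with several matches are not given in the sources used here. Mouse numbers 1 to 3 come from the labels.

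Each experiment was fitted on its own with edgeR's quasi-likelihood test (edgeR 4.0.16, limma 3.58.1, R 4.3.3) with TMM normalization and a term per condition, and genes were kept by filterByExpr (minimum count 10, minimum total 15), leaving 16110 and 14172 genes. All p-values were adjusted by Benjamini and Hochberg over all genes tested, with 0.05 as the threshold. Differences between the experiments were fitted jointly over 15835 genes. DESeq2 1.42.0, RLE normalization, other filters, only the groups compared, a replicate block, mock as the reference and leaving out each sample were alternatives. Added after values had been seen were 4 comparisons: those between the experiments and that of mock against untransfected samples in M2-like minus M0 macrophages. Tables and figures used Python 3.11.15, NumPy 2.4.6, pandas 2.3.3 and matplotlib 3.10.9. Symbols and exon lengths came from GENCODE M21, in which 37607 of the 39179 identifiers were found.

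The models were tested on counts simulated independently for each sample, so without the pairing of mice or replicates. For M1-like against M2-like at 24 h, 99 of 100 log2 changes of 1 and 81 of 100 of 0.5 were recovered, with 11 unchanged genes called. For the Myc against the negative pool these were 99, 72 and 12. Counts per sample limit the precision of weak genes, and standard errors cover the spread between samples. Samples of the same mouse deviated together in most pairs (median r 0.25 over 9 pairs, lowest -0.056, against -0.135 over 18 pairs of different mice, across 10755 genes). Deviations were taken from the mean of each group and cancel within it. A positive r in pairs of the same mouse therefore forces a negative r in the others, which is no separate baseline. Since each mouse gave all conditions, the pairing comes from the labels. The integrin genes and the lists were chosen with earlier results of these data known. In the other lists, the 3 genes of each with the largest change among those called between M1-like and M2-like at 24 h and a mean log2 CPM of at least 2 are named, and for each integrin the 3 genes with the highest correlation of condition means (prior count 2), of which 1 is given for Itgam, Itgav and Itgb3. One gene that the rule picks is not reported here.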

Additional observations from a re-analysis of the deposited data

Results flagged for a closer look

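Each result here is a difference between fold changes (log2 scale) that passed its test in edgeR at an adjusted p of 0.05, and the values of the single contrasts stand in the report. Between the polarization and reprogramming experiments, the change in M1-like against M0 macrophages differed for 8 integrins: by -1.75 for Itgam, 1.29 for Itgax, 1.2 for Itgal, -1.13 for Itga6, 0.92 for Itgb1, 1.03 for Itgb2, -3.17 for Itgb3 and -1.86 for Itgb7. The change in M2-like against M0 macrophages differed by 1.44 for Itgal, 0.45 for Itgav and 2.07 for Itgb7, and the Itgav call was lost in 5 of the 12 fits with a sample left out. The gap between M1-like and M2-like macrophages differed by -1.99 for Itgam, 1.43 for Itgax, -0.96 for Itga6, 0.71 for Itgb1, 1.25 for Itgb2, -3.14 for Itgb3 and -3.93 for Itgb7. These contrasts share samples, so they are not separate evidence, and read type, facility, counting and any difference in harvest time cannot be told apart.

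The change from untransfected to mock samples in M2-like macrophages minus that in M0 macrophages was -0.81 for Itgax, 1.82 for Itgal, -1.02 for Itgb3 and 1.73 for Itgb7. The calls of Itgax and Itgb3 were lost in 7 and 9 of the 12 fits with a sample left out. The gap between M1-like and M2-like macrophages was smaller in mock than in untransfected samples for Itgb7, by -0.90. The reagent and any difference in harvest time or exposure to IL-4 cannot be told apart.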

How the results depend on the processing

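Counts of integrins called moved by more than 1.5 times in few comparisons. The negative pool against mock went from 2 to 4 without a filter, with only the groups compared and with the replicate block, and M2-like mock against M2-like from 1 to 2 without a filter. With mock as the reference, the counts became 7 for the Myc, 2 for the E2f1 and 4 for the Stat6 pool. The E2f1 count was also 2 without a filter, with only the groups compared and with the block, and the Stat6 count 2 with DESeq2, with only the groups compared and with the block. The sign of the estimate turned with mock as the reference for Itgax (-0.40) and Itgb7 (1.79) with the Myc pool, Itgal (0.17) and Itgb7 (1.72) with the E2f1 pool and Itgal (0.33) with the Stat6 pool. No gene was called in both directions. Against the negative pool Itgax (0.06) and Itgb7 (-0.02) with the Myc pool and Itgb7 (-0.10) with the E2f1 pool were not called. Against mock Itgal was not called. Leaving out 1 sample gave 3 to 7 calls for mock against M0, 1 to 3 for the Pparg pool and 0 to 1 for the Stat6 pool. It gave 2 to 4 for mock against untransfected samples in M2-like minus M0, 3 to 6 for M2-like against M0 at 24 h and counts within 1 of the reported one elsewhere. The block on mouse changed no call at 24 h (9, 4 and 9 genes). In the reprogramming experiment same-numbered samples correlated with a median r of 0.183 over 198 pairs (lowest -0.249), 34 of 36 samples correlated best with their own number, and the block added 7 calls and lost none. RLE normalization shifted the median of all genes by at most 0.051. Small changes of weakly expressed chains may be undetectable at this depth. The causes were not tested.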

Other observations

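Itgad, the alpha chain next to Itgax, was measured at 34.3 ± 1.41, 4.87 ± 0.957 and 66.8 ± 2.49 CPM in M0, M1-like and M2-like macrophages at 24 h, whereas its mean over the conditions of the reprogramming experiment was at most 0.415 CPM and it did not pass the filter there. The CPM of the experiments were normalized separately, the counting settings of each are not given in the sources used here, and the cause of the gap was not tested. Shares of the alpha partners at 24 h include Itgad.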
